A study of Mus musculus with 8 samples.

Results

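The genes described here are 8 caspase and apoptosome genes of the mouse, *Casp1*, *Casp2*, *Casp4*, *Casp6*, *Casp9*, *Apaf1*, *Cycs* and *Diablo*, out of 20172 genes with values. They were chosen by name and function, by matching Ensembl identifiers to mouse symbols, and not by a rule on their values. Earlier results of these data were known when they were chosen. All 8 passed the filter on low values, a mean of at least 10 normalized counts over the 8 libraries, together with 13990 genes in all. The libraries were 4 of TNFR2+ and 4 of TNFR2− regulatory T cells (Tregs), the *Foxp3*-expressing CD4+ T cells that restrain immune responses, from spleens of female mice of the genotype *Foxp3* YFP-cre, also written *Foxp3* CreYFP. Both groups carried this allele, in which *Foxp3* drives Cre and yellow fluorescent protein, and both were sorted as CD4+ YFP+ cells and separated by surface TNFR2, a receptor for TNF. No treatment or time point separated the groups, and the age given for the mice of the whole study is young adult. Nothing in the labels said that replicates came from separate mice, so p-values measure the spread between these samples, which may be technical.

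Caspases are proteases made as inactive zymogens. Inflammatory caspases (caspase-1 and, in the mouse, caspase-11, the product of *Casp4*) cleave gasdermin D, and caspase-1 also matures IL-1β and IL-18. In intrinsic apoptosis, cytochrome c leaves the mitochondria and binds *Apaf1*, which assembles the apoptosome and recruits caspase-9, an initiator, which then cleaves the effector caspases. Smac, the product of *Diablo*, leaves with it and relieves caspases of their inhibitors. These proteins are regulated largely after translation, by cleavage and assembly, and transcript levels do not report their activity.

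*Casp1* and *Casp4* lie side by side on chromosome 9 and are transcribed in the same direction, with 1562 bases between the end of one and the start of the other, and *Casp12* starts 8646 bases past the end of *Casp4*. The windows around the starts of this pair are shown because they were the 2 genes of the 8 whose groups did not overlap. The sequences are from RefSeq on GRCm38.p6, each with 250 bases before and 50 bases after the start, on the plus strand, at chr9:5298267-5298566 for *Casp1* and chr9:5308599-5308898 for *Casp4*. Capitals mark matches on either strand to a kB pattern, read as GGG, any 2 bases, TT, any base and CC.
Casp1 promoter: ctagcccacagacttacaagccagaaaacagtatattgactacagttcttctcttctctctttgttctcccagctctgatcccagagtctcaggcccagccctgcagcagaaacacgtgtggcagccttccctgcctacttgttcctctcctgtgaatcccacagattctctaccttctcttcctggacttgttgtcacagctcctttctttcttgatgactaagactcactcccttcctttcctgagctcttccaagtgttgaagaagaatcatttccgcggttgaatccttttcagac
Casp4 promoter: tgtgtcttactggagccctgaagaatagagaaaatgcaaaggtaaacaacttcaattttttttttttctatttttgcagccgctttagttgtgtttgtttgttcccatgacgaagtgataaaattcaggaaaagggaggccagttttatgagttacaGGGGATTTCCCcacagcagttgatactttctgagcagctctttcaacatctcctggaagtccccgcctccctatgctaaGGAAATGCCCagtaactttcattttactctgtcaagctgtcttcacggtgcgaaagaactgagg

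The kB pattern describes DNA that NF-kB dimers can bind. It was matched 3 times in the *Casp4* window shown, by a pair of overlapping matches on the plus strand that begin at positions −93 and −92 from the start and by a match on the minus strand at −14. *Casp4* has another RefSeq start, with a window at chr9:5308610-5308909, from which the same matches lie at −104, −103 and −25. None of the other 7 genes had a match, against 4.79% of all 32851 windows of the same length that held one. The E2F pattern TTCCCGCC was matched in the *Casp2* window only (2.19% of all windows), and the core of the interferon-stimulated response element, GAAA and GAAA with any 2 bases between (3.44%), the gamma-activated site TTCNNNGAA (8.3%), the AP-1 site TGANTCA (7.81%) and TATAAA (13.6%) in no window of the 8 genes, with both strands searched. The G and C content of the windows was 48.0% for *Casp1* and 42.0% for *Casp4*, below the median of 52.7% over all windows, and 62.0% to 74.7% for the other 6 genes. These are matches of letters and no evidence of binding.

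Deposited values summed to between 9576920 and 11492762 per library, and steps between low values gave estimated depths of 9100000 to 12110000 reads. *Tnfrsf1b*, which encodes TNFR2, was higher in TNFR2+ Tregs (log2 fold change 0.90 ± 0.16 SE, limma, adjusted p = 0.0045), with no overlap between the groups. TNFR2− replicate 3 stood apart from the other 7 libraries on the second principal component. T cell and Treg markers (8 of 8 with values) summed to 29553 to 34405 normalized counts in TNFR2+ and 22794 to 27659 in TNFR2− libraries, without overlap, and 3 of 8 were called higher. B cell markers (12 of 15 with values) summed to 4857 to 7079 in TNFR2+ and 2004 to 3541 in TNFR2− Tregs, and proliferation markers (12 of 12) to 7313 to 11045 and 3122 to 4578, both without overlap. The mean log2 level of the B cell markers did overlap (5.49 to 5.70 against 4.59 to 6.07), and 2 of 9 tested were called higher. Genes induced by sorting stress (10 of 10 with values) had a higher sum in TNFR2− Tregs, 62945 to 76841 against 45854 to 53864. Of the 10 tested, 6 were called lower in TNFR2+ Tregs. In bulk RNA, fewer cells of a type and less RNA per cell cannot be told apart.

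Of the 8 genes, 1 was called higher in TNFR2+ Tregs at an adjusted p under 0.05, *Casp4*, and 0 were called lower, against 7.91% of all genes tested that were called in either direction, 4.52% higher and 3.39% lower. These calls came from limma with Benjamini-Hochberg adjustment over 13990 genes, of which 633 were higher and 474 lower. Before adjustment 2 of the 8 had a p under 0.05, both higher in TNFR2+ Tregs, against 23.0% of all genes in either direction. The groups did not overlap for 2 of the 8, both higher in TNFR2+ Tregs, against 15.4% of all genes, 8.08% higher and 7.29% lower. The median log2 fold change was 0.25 over the 8 and −0.01 over all genes tested. Scaling the libraries to equal sums moved that all-gene median to 0.12 and the split of calls to 905 higher and 309 lower, and left *Casp4* as the 1 gene of the 8 that was called. The plot of values by library shows the 8 genes side by side.

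**Figure D1:**
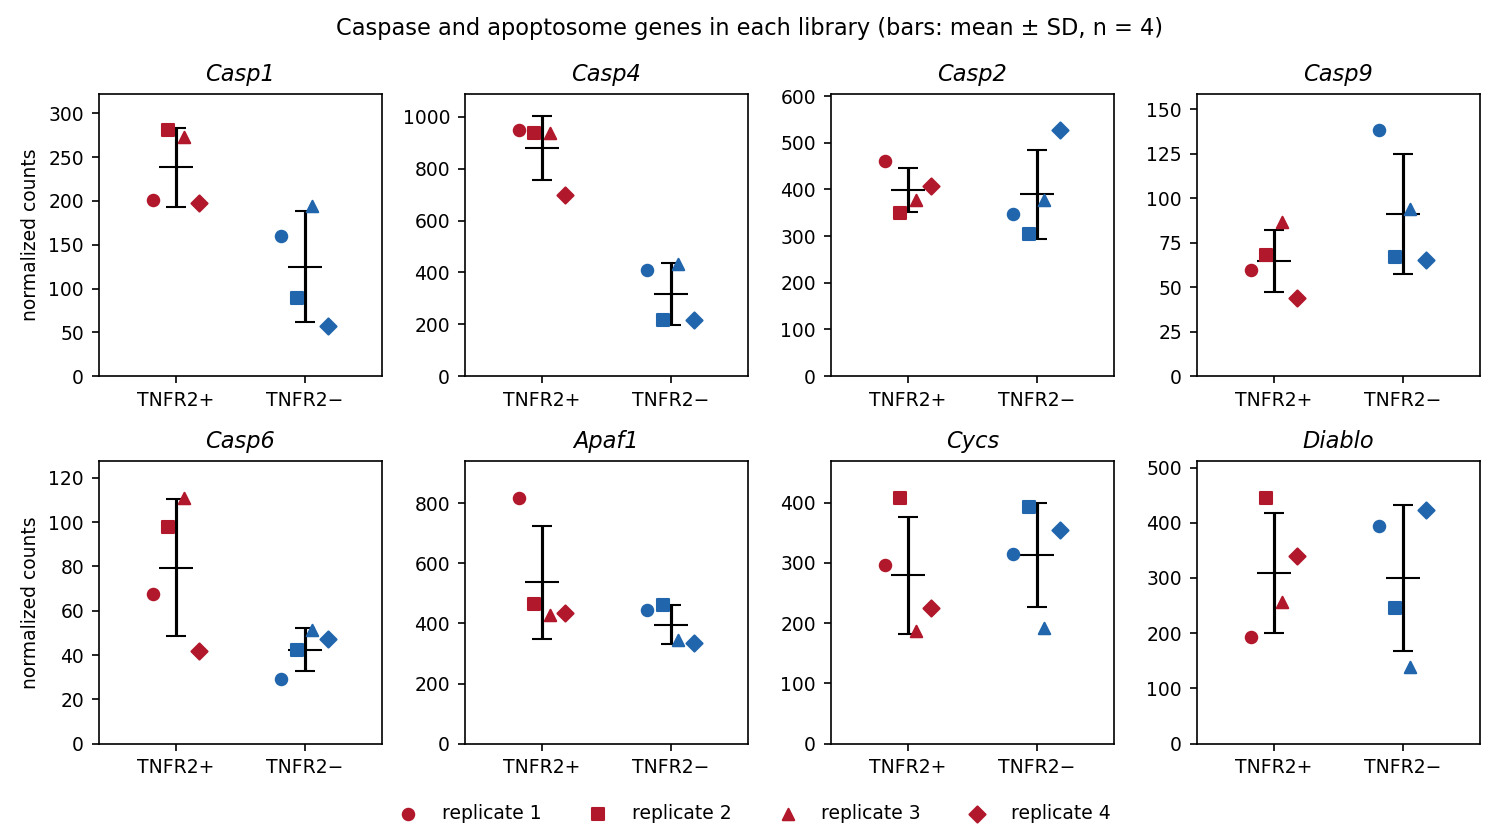
Normalized counts (vertical axes, each from 0) of the 8 genes in each library, with TNFR2+ Tregs in red and TNFR2− Tregs in blue, marker shapes for replicates 1 to 4, and bars for the mean ± SD of 4 libraries. The groups are apart for *Casp4*, with 698 as the lowest TNFR2+ value and 434 as the highest TNFR2− value, and just apart for *Casp1*, and they overlap for the other 6 genes.

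*Casp4* rose in TNFR2+ Tregs. It encodes caspase-11, the caspase that binds cytosolic lipopolysaccharide, and lies at chr9:5308828-5336783 (GENCODE annotation of GRCm38, as for all gene positions here). TNFR2+ libraries 1 to 4 held 948, 939, 937 and 698 normalized counts, and TNFR2− libraries 1 to 4 held 408, 216, 434 and 215. The groups did not overlap, and the TNFR2− libraries formed a higher pair, replicates 1 and 3, and a lower pair, replicates 2 and 4. Means were 881 ± 122 and 318 ± 119 (SD, n = 4 each), and the fold change was 2.89 (95% interval 2.00 to 4.19, log2 1.53 ± 0.25 SE, limma, adjusted p = 0.0023). With any single library left out the log2 fold change stayed between 1.37 and 1.71 and the adjusted p at or below 0.0119, and all 17 alternative settings called it. By the exact permutation test over 70 relabellings the two-sided p was 0.0286, the smallest that 4 libraries against 4 can give.

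In each group the libraries lowest in *Casp4* also had the lowest sums of proliferation, B cell, and T cell and Treg markers. Within TNFR2− Tregs, the proliferation sums of replicates 1 and 3, the higher *Casp4* pair, were 4551 and 4578, and those of replicates 2 and 4 were 3853 and 3122. B cell marker sums were 2781 and 3541 in replicates 1 and 3 and 2207 and 2004 in replicates 2 and 4. T cell and Treg sums were 24797 and 27659 in replicates 1 and 3 and 23329 and 22794 in replicates 2 and 4. Replicate 4 had the lowest *Casp4* of the TNFR2+ libraries and also their lowest proliferation sum, 7313, their lowest B cell marker sum, 4857, and their lowest T cell and Treg sum, 29553. These libraries also had the highest share of signal from *Gm26917* and *Gm42418*, a pair of loci that overlap ribosomal RNA sequence. It was 8.20% in TNFR2+ replicate 4 against 6.01% to 7.29% in the other TNFR2+ libraries, and 10.1% and 11.4% in TNFR2− replicates 2 and 4 against 7.39% and 6.28% in replicates 1 and 3. The part of these marker groups and of this share in the *Casp4* result was not tested. Myeloid cells also express *Casp4*, and the myeloid list, with 8 of 20 genes having values and *Lyz2*, *Adgre1* and *Itgax* among those without, summed to 225 to 318 in TNFR2+ and 244 to 336 in TNFR2− Tregs, so the groups overlapped. Whether myeloid cells had a part in the *Casp4* result was not tested either. Interferon-stimulated genes overlapped in their sum (6878 to 9008 against 7473 to 9140) but not in their mean log2 level, which was lower in TNFR2+ Tregs (6.57 to 7.18 against 7.23 to 7.83). Their median log2 fold change was −0.40, and 2 of 12 were called lower.

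Among 9204 protein-coding genes with a mean of at least 50, *Casp4* included, the profiles nearest to that of *Casp4* over the 8 libraries were those of *Mcm6* and *Hist1h2bj*. *Mcm6* encodes a subunit of the replicative helicase and *Hist1h2bj* a histone H2B. Their centred log2 values differed from those of *Casp4* by a root mean square of 0.12 and 0.13. *Mcm6* held 2210, 2062, 2244 and 1731 normalized counts in TNFR2+ and 910, 576, 896 and 569 in TNFR2− libraries, with the same low replicate 4 in the first group and the same higher pair in the second. Both genes were picked for their likeness to *Casp4* over the same libraries, so the shared order follows from that choice. *Hist1h2bj* was lower in level, at 111 to 161 in TNFR2+ and 31.4 to 69.8 in TNFR2− libraries.

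*Casp1* did not pass the threshold. It encodes caspase-1, the protease of canonical inflammasomes, and lies at chr9:5298517-5307265. TNFR2+ libraries held 201, 281, 274 and 198 normalized counts and TNFR2− libraries 160, 89.0, 195 and 56.9. The groups did not overlap, but the lowest TNFR2+ value, 198.1 in replicate 4, was close to the highest TNFR2− value, 194.6 in replicate 3. The fold change was 2.09 (95% interval 1.22 to 3.56, log2 1.06 ± 0.36 SE), with an unadjusted p of 0.0108 and a Benjamini-Hochberg adjusted p of 0.0901 by limma. TNFR2− replicate 3, the library apart from the rest, decided the call: without it the log2 fold change was 1.32 and the adjusted p 0.0335, whereas in the other 16 settings the adjusted p lay above the threshold. *Casp1* and *Casp4* shared the ordering of TNFR2− libraries, with replicates 1 and 3 above replicates 2 and 4. The ratio of *Casp1* to *Casp4* within a library was 0.212 to 0.299 in TNFR2+ and 0.264 to 0.448 in TNFR2− Tregs, a log2 difference of −0.47 (exact permutation p = 0.114, 0.190 after adjustment over 4 ratios). The third gene of the cluster, *Casp12*, was near 0, with 0 to 6.33 normalized counts in TNFR2+ and 0 to 9.40 in TNFR2− libraries, and was below the filter.

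The initiator *Casp2* did not pass the threshold. Caspase-2 is activated on the PIDDosome, a platform of *Pidd1* and *Cradd*. The gene, at chr6:42264985-42282508, held 460, 349, 378 and 407 normalized counts in TNFR2+ libraries and 347, 305, 378 and 526 in TNFR2− libraries. Both the highest and the lowest values were in TNFR2− Tregs. The fold change was 1.04 with a 95% interval of 0.769 to 1.40 (limma, adjusted p = 0.906), so a doubling lay outside the interval.

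*Casp9* was among the lowest of the 8 genes. Its product is the caspase that the apoptosome activates, and the gene is at chr4:141793612-141815976. Values were 59.9, 68.2, 86.5 and 44.1 normalized counts in TNFR2+ libraries and 138, 67.2, 94.1 and 65.3 in TNFR2− libraries. The TNFR2− values lay within the TNFR2+ range in 2 libraries and above it in the other 2. The log2 fold change was −0.46 ± 0.36 SE, a fold of 0.726 with a 95% interval of 0.421 to 1.25 (limma, adjusted p = 0.497). *Cela2a* and *Ctrc*, which overlap *Casp9* on the opposite strand, had no value here.

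*Casp6*, the effector caspase that cleaves nuclear lamin A, varied most within TNFR2+ Tregs. The gene, at chr3:129901425-129914103, held 67.5, 97.7, 111 and 42.0 normalized counts in TNFR2+ libraries and 29.3, 42.2, 51.3 and 47.0 in TNFR2− libraries. TNFR2+ replicate 4 lay among the TNFR2− values and the other 3 TNFR2+ libraries above them. The coefficient of variation was 38.9% in TNFR2+ and 22.5% in TNFR2− Tregs. The fold change was 1.77 with a 95% interval of 0.961 to 3.27 (limma, adjusted p = 0.249), an interval that includes both no change and a doubling.

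*Apaf1* encodes the scaffold of the apoptosome and lies at chr10:90989311-91082770 on the minus strand. TNFR2+ libraries held 818, 465, 428 and 436 normalized counts and TNFR2− libraries 444, 460, 344 and 336. Replicate 1 of TNFR2+ Tregs was far above the other 7 libraries, which overlapped. The fold change was 1.32 with a 95% interval of 0.937 to 1.85 (limma, adjusted p = 0.326), and the log2 fold change ranged from 0.17 to 0.49 as single libraries were left out, the lowest being without that replicate.

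*Cycs* encodes cytochrome c, an electron carrier in living cells and the trigger of the apoptosome once released. At chr6:50562563-50566538, on the minus strand, it held 297, 408, 187 and 226 normalized counts in TNFR2+ libraries and 315, 392, 192 and 354 in TNFR2− libraries. The groups covered almost the same range. The fold change was 0.884 with a 95% interval of 0.577 to 1.35 (limma, adjusted p = 0.763). *Cycs* has 4 near-identical copies in the annotation, 2 of them with values. Reads may have been divided among them, and the share of the copies in their signal and that of *Cycs* differed widely between libraries, at 1.77%, 7.90%, 34.4% and 20.2% in TNFR2+ and 0%, 4.92%, 25.0% and 21.2% in TNFR2− libraries. With the copies added, the sums were 282 to 443 in TNFR2+ and 256 to 449 in TNFR2− libraries and overlapped as well, and single *Cycs* values are uncertain by these shares.

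*Diablo* encodes Smac, which binds inhibitor of apoptosis proteins in the cytosol. The gene, at chr5:123509765-123524176 on the minus strand, held 194, 445, 257 and 340 normalized counts in TNFR2+ libraries and 393, 246, 139 and 423 in TNFR2− libraries. It had the widest spread in TNFR2− Tregs apart from *Casp1*, with coefficients of variation of 44.1% and 50.6%, and the groups overlapped throughout. The fold change was 1.07 with a 95% interval of 0.634 to 1.81 (limma, adjusted p = 0.904), and its direction turned when TNFR2+ replicate 2 or TNFR2− replicate 3 was left out. *Gm49027*, a gene model on the same strand that holds near-identical sequence, had no value here, and *B3gnt4* on the opposite strand had a mean of 3.02 normalized counts.

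**Figure D2:**
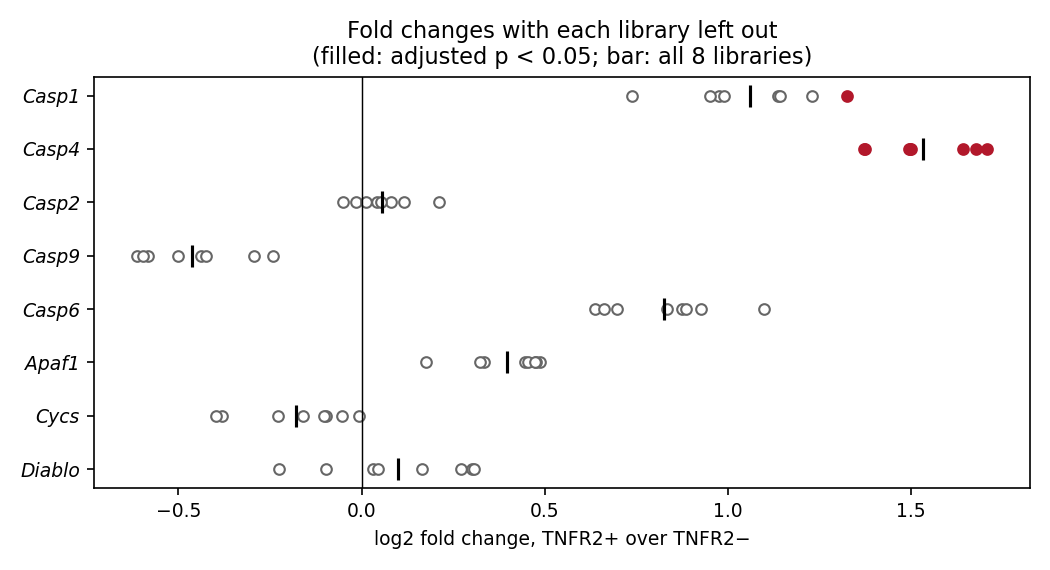
Log2 fold changes of the 8 genes (TNFR2+ over TNFR2−, horizontal axis) with each of the 8 libraries left out in turn (circles, filled where the adjusted p is under 0.05) and with all libraries (bars). *Casp4* was called in 8 of 8 fits and *Casp1* in 1, and circles of *Casp2* and *Diablo* lie on both sides of 0.

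The ratios between partners within a library did not differ past the threshold. They do not depend on the scaling between libraries. *Cycs* to *Apaf1* was 0.363 to 0.878 in TNFR2+ and 0.558 to 1.05 in TNFR2− Tregs (log2 difference −0.58, exact permutation p = 0.143). *Cycs* was taken here without its near-identical copies, so this ratio carries the uncertainty given above for single *Cycs* values. *Casp9* to *Apaf1* was 0.0732 to 0.202 and 0.146 to 0.311 (−0.86, exact permutation p = 0.143). *Diablo* to *Xiap*, the inhibitor that Smac binds, was 0.256 to 0.477 and 0.313 to 1.05 (−0.62, exact permutation p = 0.229). These 3 log2 differences were all negative, and in each case the groups overlapped. The ratios to *Apaf1* share a denominator and are not independent. In both of them the lowest value, 0.363 and 0.0732, was that of TNFR2+ replicate 1, the library highest in *Apaf1*. After Benjamini-Hochberg adjustment over the 4 ratios tested, the lowest p was 0.190.

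Levels of different genes were compared per kilobase of the main annotated transcript. In TNFR2+ Tregs the order was *Casp4* (614 ± 85.0 normalized counts per kb, SD, n = 4), *Diablo* (196 ± 68.9), *Casp1* (159 ± 29.9), *Casp2* (113 ± 13.4), *Cycs* (89.5 ± 31.1), *Apaf1* (81.6 ± 28.6), *Casp6* (54.6 ± 21.3) and *Casp9* (16.6 ± 4.53). Among neighbours in this order, *Casp4* was apart from *Diablo*, *Casp1* from *Casp2* and *Casp6* from *Casp9* in every TNFR2+ library, and the other neighbouring ranges overlapped. In TNFR2− Tregs, *Casp4* (222 ± 83.0 per kb) no longer stood apart from *Diablo* (191 ± 84.0): it was the higher of the pair in 2 of 4 libraries. *Casp9* had 23.4 ± 8.71 per kb there, and its range overlapped that of *Casp6* (29.2 ± 6.57).

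*Casp4* was also set against the other caspases of the same library. Over the 5 caspases among the 8 genes together with *Casp8* and *Casp12*, 7 in all, the summed level was 1365 ± 129 normalized counts per kb in TNFR2+ and 1068 ± 83.1 in TNFR2− Tregs (SD, n = 4 each), and with *Casp4* left out of the sum the ratio of the means was 0.888. *Casp4* made up 48.4%, 44.8%, 45.0% and 41.1% of this sum in TNFR2+ libraries and 24.5%, 15.7%, 27.6% and 14.1% in TNFR2− libraries. It was the highest of the 7 in every TNFR2+ library, and *Casp8*, the initiator at death receptors, was the highest in every TNFR2− library. *Casp8* took 27.7% to 34.6% in TNFR2+ and 45.0% to 64.2% in TNFR2− libraries. *Casp9* took 0.957% to 1.53% against 1.58% to 3.06%. These 3 shares did not overlap between the groups, whereas those of *Casp1*, *Casp2*, *Casp6* and *Casp12* did. The exact permutation p was 0.0286 for each of the 3, the smallest possible, and 0.0667 after adjustment over the 7 shares, so none passed the threshold. The 7 shares add up to the whole and are not independent.

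**Figure D3:**
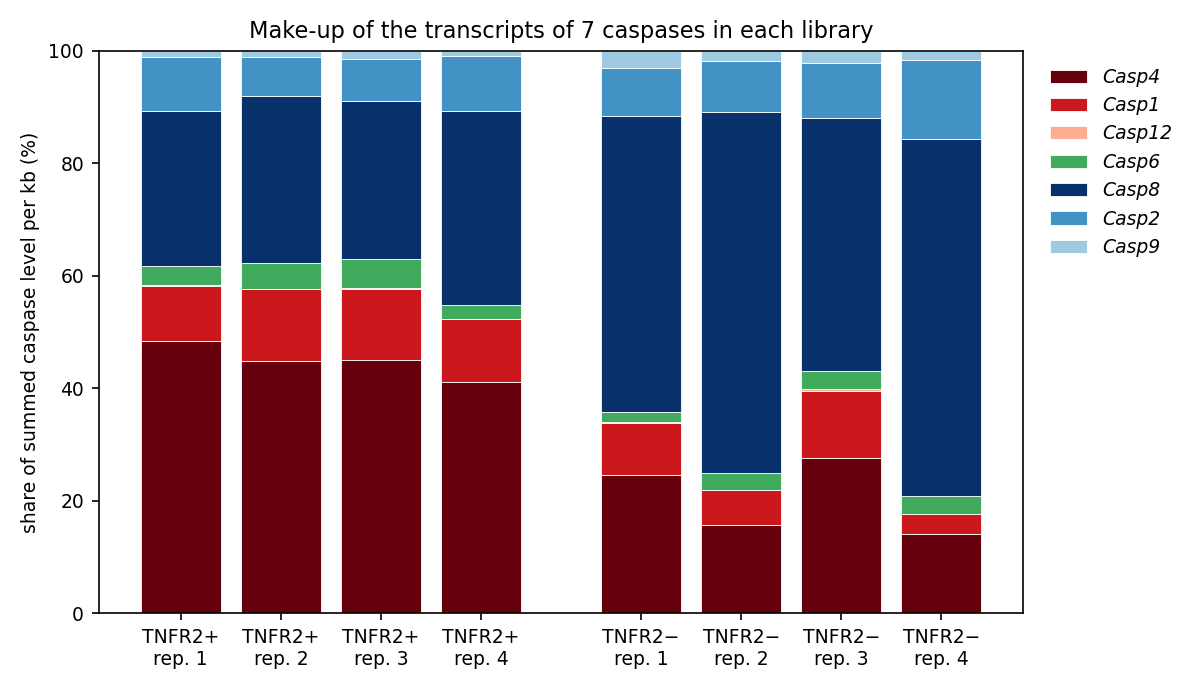
Share of each of 7 caspases in their summed level per kb (vertical axis, percent) in each library, with inflammatory caspases in reds, the effector in green and initiators in blues. *Casp4* is the widest band in the 4 TNFR2+ libraries (41.1% to 48.4%) and *Casp8* in the 4 TNFR2− libraries (45.0% to 64.2%).

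Around these genes, 74 other genes of the pathway were listed by function, of which 68 had values and 63 were tested. Of these, 7 were higher and 4 lower in TNFR2+ Tregs, against 4.52% and 3.39% of all genes tested, and their median log2 fold change was 0.21. The counts in each list below are to be read against the same shares. *Casp8* was lower (log2 fold change −0.55 ± 0.13 SE, limma, adjusted p = 0.0234), at 1053 ± 60.5 against 1546 ± 197 normalized counts (SD, n = 4 each), a call lost in 8 of 17 settings, among them the fits without TNFR2+ replicate 1, 2 or 3 and without TNFR2− replicate 1, 2 or 4.

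Inhibitor of apoptosis proteins bind caspases or sense bacterial ligands, and 4 of 8 tested were higher and 1 lower. *Birc5*, which encodes survivin, a protein of dividing cells, was higher by 2.59 ± 0.32 on the log2 scale (limma, adjusted p = 0.00051), at 258, 314, 283 and 292 normalized counts against 84.7, 35.9, 47.7 and 32.8. *Naip5* (1.70 ± 0.29, adjusted p = 0.0032) and *Naip6* (1.64 ± 0.29, adjusted p = 0.0041) were higher too, but they are near-identical copies and each value is uncertain. Their summed signal was 1326 to 2678 in TNFR2+ and 358 to 848 in TNFR2− libraries, without overlap. *Naip2*, named after its values were seen, was the fourth (1.24 ± 0.33, adjusted p = 0.0367), and was called in 1 of 8 fits with a library left out. *Birc3*, which encodes cIAP2, was lower (−0.63 ± 0.15, adjusted p = 0.0206), a call lost in 6 of 17 settings, among them those without TNFR2+ replicate 3 or 4 or TNFR2− replicate 1 or 2. *Birc6*, the most abundant gene of this list that was not called, was at −0.24 (adjusted p = 0.162).

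Of the genes that form the outer membrane pore or are released with cytochrome c, 0 of 7 were called and 1 passed an unadjusted p under 0.05. *Opa1*, which holds cristae closed, was the most abundant (log2 fold change −0.18, limma, adjusted p = 0.587). Cytochrome c maturation and its respiratory chain partners had 0 of 9 called and 3 higher at an unadjusted p under 0.05, and *Uqcrc1*, a subunit of complex III, was at −0.06 on the log2 scale (limma, adjusted p = 0.869). The platforms of caspase-8 and caspase-2 had 0 of 7 called and 0 at an unadjusted p under 0.05, with *Cflar*, which encodes the caspase-8 modulator c-FLIP, at −0.08 (adjusted p = 0.794). Inflammasome and pyroptosis genes, which act around *Casp1* and *Casp4*, had 0 of 8 called and 2 higher at an unadjusted p under 0.05. Their most abundant gene, *Gsdmd*, which encodes the pore protein gasdermin D, held 478 ± 56.4 and 459 ± 28.2 normalized counts (log2 fold change 0.05 with a 95% interval of −0.30 to 0.40, adjusted p = 0.885).

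Among 9 tested regulators of apoptosome assembly, 1 was higher and 1 lower. *Aven*, which encodes an inhibitor of *Apaf1*, was lower by a log2 fold change of −1.62 ± 0.27 SE (limma, adjusted p = 0.0027), at 251, 231, 158 and 224 normalized counts in TNFR2+ and 435, 896, 499 and 947 in TNFR2− libraries. The lower TNFR2− pair of *Aven*, replicates 1 and 3, was the higher pair of *Casp4*. *Ptma*, which encodes prothymosin alpha, was higher by 0.37 ± 0.10 (adjusted p = 0.0453), and every fit that left out a library lost that call except the fit without TNFR2− replicate 4. *Hspa8*, the most abundant of this list not called, was at 0.08 (adjusted p = 0.743). Among 12 caspase substrates, *Lmnb1*, a nuclear lamin, was higher (1.08 ± 0.17, adjusted p = 0.0020), *Acin1*, a splicing cofactor, was lower (−0.35 ± 0.10, adjusted p = 0.0447, lost in 10 of 17 settings, with TNFR2− replicate 2 the only library whose omission kept it) and *Rock1* was at −0.06 (adjusted p = 0.774). Proliferation markers were higher in the TNFR2+ libraries by the sums given above, and their part in the results for *Birc5* and *Lmnb1* was not tested.

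**Figure D4:**
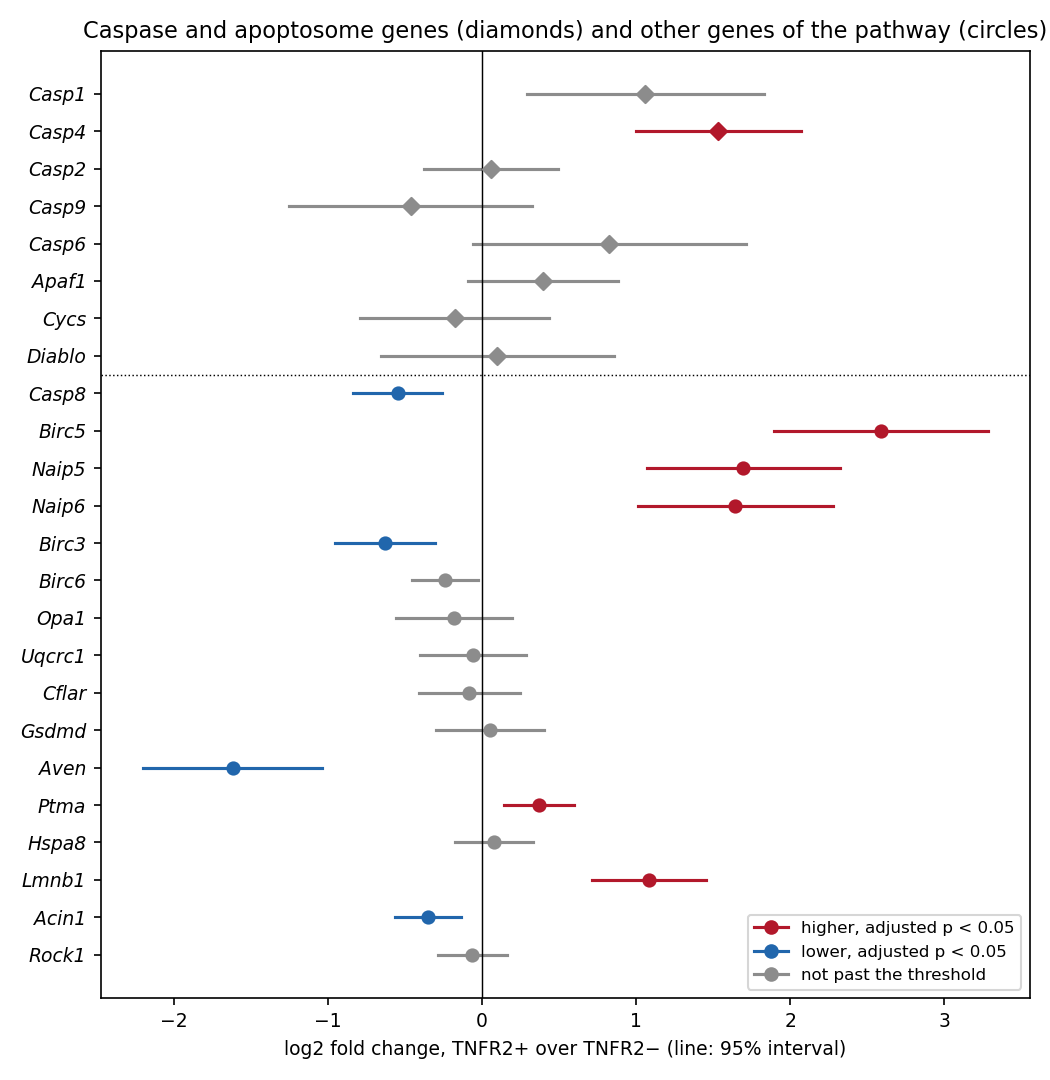
Log2 fold changes (TNFR2+ over TNFR2−, horizontal axis) with 95% intervals for the 8 genes (diamonds, above the dotted line) and the named genes of the pathway (circles), in red or blue where the adjusted p is under 0.05. Of the 8 genes, *Casp4* alone is coloured, at 1.53, and the changes farthest from 0 below the line are *Birc5* at 2.59, *Naip5* at 1.70, *Naip6* at 1.64 and *Aven* at −1.62.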

How the data were processed

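RNA of sorted Tregs was prepared by the authors with a stranded total RNA kit for low input and sequenced. The submitters' processing notes name FastQC 0.11.8, Trim Galore, Salmon 1.3.0, DESeq2 1.28, R 4.0 and the build GRCm38. The deposited values are the authors' DESeq2-normalized signal per gene, from estimated counts of Salmon and not on a log scale. Whether counting used strand is not given in the sources used here. Low values of 2806 genes with a single long transcript lay within 0.1 of whole multiples of a step in 69.7% to 96.5% of cases (20% by chance), which gave depth per library only, and no count model was fitted.

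Of 20172 identifiers, 20008 matched GENCODE. Genes with a mean of at least 10 were tested on log2(value + 1), where fold changes of low genes are understated, with limma 3.58.1 in R 4.3.3 (intensity trend, two-sided, Benjamini-Hochberg adjustment over 13990 genes, threshold 0.05). Single values were tested with exact two-sided permutation over 70 relabellings (scipy 1.17.1). The script was tested on simulated data. Near-identical copies were sought with blastn 2.17.0 (95% identity over at least 200 bases and 50% of the shorter transcript). Named genes were the 8 genes, from each functional list all genes called (at most 4) and the most abundant gene not called, and the 2 profiles nearest to each called gene of the 8. The genes and lists were chosen with earlier results of these data known. Alternatives covered scaling, filter, pseudocount, trend, replicate block, library weights and each library left out. Those for ratios and shares were chosen after seeing the data. No protein sequences were used here. Some listed genes entered the fit and the list counts but are not reported here by name.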

Additional observations from a re-analysis of the deposited data

Results flagged for a closer look

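Among 52 groups of 4 libraries (26 genes in 2 populations), 4 held a library whose gap to its nearest neighbour was above the 95% critical value of Dixon's test, and chance alone gives about 1 in 20. *Casp4* was lowest in TNFR2+ replicate 4, at 697.7 normalized counts against 937.5 to 948.1 in the other 3 libraries. *Apaf1* was highest in TNFR2+ replicate 1, at 817.8 against 427.6 to 464.8. *Opa1* was lowest in TNFR2− replicate 1, at 449.2 against 629.2 to 654.7, and *Uqcrc1* was lowest in TNFR2− replicate 4, at 686.9 against 825.6 to 847.5.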

How the results depend on the processing

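Across 17 alternatives, *Casp4* was called higher in all, *Casp1* in the fit without TNFR2− replicate 3 alone, and the other 6 genes in none. Over all genes tested, 1107 were called, 465 without an intensity trend, and 642 to 1301 with a library left out, where omitting TNFR2+ replicate 1, 2 or 3 or TNFR2− replicate 2 moved the count by over 1.5 times (722, 642, 690 and 707). Of the 8 genes, 1 to 2 were called with a library left out. Of the other pathway genes, 11 were called, 6 without a trend, and 6 to 9 with a library left out. Equal sums gave 905 higher and 309 lower calls (74.5% higher) against 633 and 474 (57.2% higher). Leave-one-out ranges of log2 fold changes crossed 0 for *Casp2* (−0.0504 to 0.21, also −0.02), *Diablo* (−0.23 to 0.31, also −0.10), *Uqcrc1* (−0.14 to 0.0559), *Cflar* (−0.17 to 0.0322) and *Hspa8* (−0.0025 to 0.17). Equal sums turned *Uqcrc1* to 0.0715, *Cflar* to 0.0460 and *Rock1* to 0.0679. The cause was not tested. The labels did not say whether libraries with the same replicate number belong together. Deviations of same-numbered libraries from their group means correlated at −0.039 to 0.001 over all genes tested. Such a correlation is taken over many genes with their own noise and cannot exclude a pairing. With a replicate block 1183 genes were called, 1008 of them shared, with 1 of the 8 genes and 12 of the other pathway genes, *Lmna* (adjusted p = 0.0028) among them, and the block changed no call among the 8. The fewest reads lay behind *Casp6* and *Casp9* among the 8 genes, with means of 61.0 and 77.9 normalized counts over the 8 libraries.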

Other observations

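Of the other pathway genes, 13 passed an unadjusted p under 0.05 without passing adjustment, 11 of them higher in TNFR2+ Tregs. The 5 with the lowest p are given here and were picked after their values were seen. *Cox5a*, a subunit of the oxidase that cytochrome c feeds, held 125 to 216 normalized counts in TNFR2+ and 80.0 to 131 in TNFR2− libraries (log2 fold change 0.90 ± 0.28 SE, limma, adjusted p = 0.0713), and passed with equal sums (adjusted p = 0.0360). *Lmna*, the lamin that caspase-6 cleaves, was at −1.33 ± 0.42 SE (adjusted p = 0.0738), with 105, 141, 288 and 435 normalized counts in TNFR2+ and 302, 433, 673 and 863 in TNFR2− libraries, and passed without TNFR2+ replicate 4 (adjusted p = 0.0246). *Htra2*, a mitochondrial protease that is released with Smac and also binds inhibitor of apoptosis proteins, held 98.5 to 164 in TNFR2+ and 19.5 to 86.2 in TNFR2− libraries, which did not overlap (1.29 ± 0.44 SE, adjusted p = 0.0909). *Xiap*, a direct inhibitor of caspase-9 and of the effectors, held 445, 933, 1004 and 774 in TNFR2+ and 632, 386, 445 and 401 in TNFR2− libraries (0.72 ± 0.25 SE, adjusted p = 0.102), and passed without TNFR2+ replicate 1, the library within the TNFR2− range (adjusted p = 0.0200). *Aim2*, the sensor of cytosolic DNA that assembles an inflammasome with caspase-1, held 353 to 566 in TNFR2+ and 262 to 375 in TNFR2− libraries (0.57 ± 0.20 SE, adjusted p = 0.102), and just passed with equal sums (adjusted p = 0.04998).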
